A study of Mus musculus with 8 samples.

Results

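The genes described here encode the proteins of the cytosolic ribosome, and they were taken by name from a gene table of mouse dorsal root ganglia. A gene was included when its symbol was Rps or Rpl followed by a number, with an optional a, x, y or l and an optional further digit, or when it was Rpsa, Rplp0, Rplp1 or Rplp2. Kinase genes such as Rps6ka and symbols ending in -ps were left out. The rule found 84 genes of 21878 in the table, 32 with names of the small subunit and 52 with names of the large subunit. The dKO SNI and dKO sham mice carried Advillin-Cre with floxed Myh9 and Myh10 alleles, and the WT SNI and WT sham mice carried the same floxed alleles without Cre. Each group held 2 libraries, 8 in all. All mice were C57BL/6, and no source used here gives their age. Lumbar 4 and 5 ganglia were collected 3 days after surgery, which was cutting of the sciatic nerve (named SNI in the labels) or a sham operation. Advillin (Avil) is active in sensory neurons, so the other cells of the ganglion keep their Myh9 and Myh10, which encode heavy chains of non-muscle myosin II. No label states that both libraries of a group stem from different animals. The p-values thus reflect variation among these libraries, which may be technical.

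A ribosome joins a small subunit, which reads the mRNA, with a large subunit, which forms the peptide bond. Most of its proteins are held on ribosomal RNA in single copies, and cells make them in matched amounts. Their mRNAs are among the most abundant of any cell, and many begin with a run of pyrimidines (a 5′ terminal oligopyrimidine tract) through which mTOR signalling sets how strongly they are translated. In sensory neurons, ribosomal protein mRNAs are found in axons as well as in the cell body, and the growth of an injured axon needs new protein. Mammalian genomes also hold many processed copies of these genes, made by reverse transcription of the mRNAs, and such copies can take up reads of the parent gene.

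Some of these genes carry a pyrimidine run at a listed start, and windows of 30 bases are shown for 5 genes with such a run and 3 whose listed start lies outside any run. Each window holds 20 bases before the start listed in the RefSeq table (build GRCm38.p6) and 10 bases from it, and capitals mark the unbroken run of C and T that includes the start. The windows lie at chr2:39005122-39005151 (minus strand) for Rpl35, chr3:90213639-90213668 (minus) for Rps27, chr17:33955656-33955685 (minus) for Rps18, chr7:4792945-4792974 (plus) for Rpl28 and chr2:26910787-26910816 (plus) for Rpl7a. They lie at chr10:128549159-128549188 (minus) for Rpl41, chr10:128626497-128626526 (minus) for Rps26 and chr9:66946066-66946095 (plus) for the first listed start of Rps27l.
Rpl35: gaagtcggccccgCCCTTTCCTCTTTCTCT
Rps27: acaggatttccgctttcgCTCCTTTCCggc
Rps18: acttatacgtcacttccgCTCTCTCTTCCa
Rpl28: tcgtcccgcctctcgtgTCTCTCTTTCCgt
Rpl7a: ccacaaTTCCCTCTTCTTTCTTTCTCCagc
Rpl41: gacgacacacgggccggctcggaagtgacg
Rps26: agcgggtcgggcaagccgccggatcctctt
Rps27l: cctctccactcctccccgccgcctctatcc

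Of the 84 genes, 64 had an entry in that table of gene starts. A run of at least 8 C or T bases that includes a listed start was present in 28.1% of the 64, against 4.59% of 27025 genes with an entry. A run near a listed start that does not include it, as in the windows of Rpl18 and Rpl4, was not counted. The windows of Rps26 and Rps27l shown above also hold a stretch of C and T just after the listed start. In the 250 bases before the start and the 50 after it, read on both strands, CCGGAAG, the core bound by ETS factors such as GABPA, was found in 40.6% of the 64 and 9.93% of all. GGGCGG, bound by SP1, was found in 60.9% against 38.2%, and AAGATGGCG, bound by YY1, in 6.25% against 1.64%. TATAAA (12.5% against 15.7%) and CACGTG (9.38% against 8.09%) were about as frequent as in all genes. The bases before the start of Rpl35, the gene of this family with the second highest level, are shown as an example, at chr2:39005132-39005381 on the minus strand, with CCGGAAG and GGGCGG (or their reverse complements) in capitals.
Rpl35: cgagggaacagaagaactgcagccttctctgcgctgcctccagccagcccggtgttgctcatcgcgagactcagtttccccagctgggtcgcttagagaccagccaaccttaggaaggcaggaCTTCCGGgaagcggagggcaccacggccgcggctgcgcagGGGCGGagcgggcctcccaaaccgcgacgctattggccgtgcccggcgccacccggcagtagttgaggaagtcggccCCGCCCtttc

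The values are FPKM, fragment counts scaled by transcript length and by the mapped fragments of the library, so levels of genes can be set side by side per length. Their totals ran from 278309.5 to 339920.1 per library, and read depth is unknown. Myh9 measured 24.6 and 24.4 FPKM in dKO SNI, against 30.8 and 29.7 in WT SNI. In sham ganglia it measured 10.9 and 12.1 FPKM with Cre (dKO), against 27.2 and 31.6 without (WT). Myh10 measured 5.31 and 4.12 FPKM in dKO SNI, against 13.8 and 10.4 in WT SNI. In sham ganglia it measured 12.2 and 14.4 FPKM with Cre (dKO), against 18.1 and 23.5 without (WT). Avil was lower in each dKO library (34.5 to 80.0 FPKM) than in each WT library (112 to 180.1 FPKM). The Y-linked genes Ddx3y, Eif2s3y, Kdm5d and Uty were present in dKO SNI and WT sham (2.10 to 17.8 FPKM) and near 0 in dKO sham and WT SNI (0 to 0.0109 FPKM), so each comparison of 2 groups also compares libraries with and without Y-linked transcripts. The average of the injury effects and the average of the genotype effects are balanced over that difference; for the difference between the injury effects, genotype and Y-linked transcripts cannot be told apart. WT sham 2 held skeletal muscle transcripts (10 markers summing to 862 FPKM, against 49.1 to 95.2 FPKM in the other 7 libraries). Markers of sensory neurons were present in all libraries, with Avil as above.

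The ribosomal protein genes took a larger part of the measured RNA after axotomy than after sham surgery, and the largest part in dKO SNI. Together the 84 genes held 10.8 and 13.2% of all FPKM in the dKO SNI libraries, against 5.30 and 6.34% in the dKO sham libraries. They held 6.09 and 7.82% in the WT SNI libraries, against 5.17 and 4.22% in the WT sham libraries. The dKO SNI libraries lay above the other 6, both WT SNI libraries lay above both WT sham libraries, and WT SNI and dKO sham overlapped. The small subunit genes summed to 13860.5 and 17398 FPKM in dKO SNI, against 5637 and 7350.3 in dKO sham, and to 6768 and 9224 FPKM in WT SNI, against 5378 and 4339 in WT sham. The 77 genes of the mitochondrial ribosome, whose names begin with Mrps or Mrpl, held 0.639 and 0.693% in dKO SNI, 0.596 and 0.656% in dKO sham, 0.560 and 0.582% in WT SNI, and 0.583 and 0.547% in WT sham, with overlap between SNI and sham libraries in both genotypes.

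**Figure D1:**
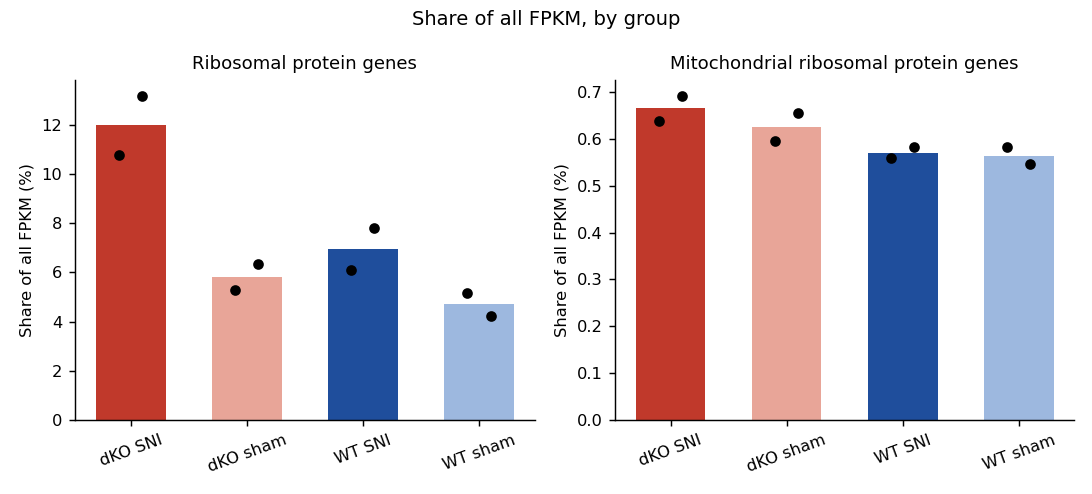
Share of all FPKM (%) held by the 84 cytosolic ribosomal protein genes (left) and the 77 mitochondrial ribosomal protein genes (right). Points are single libraries and bars are means of 2 libraries. The cytosolic share is 10.8 and 13.2% in dKO SNI and 4.22 to 7.82% in the other 6 libraries, while the mitochondrial share stays between 0.547 and 0.693%.

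In bulk tissue, fewer cells of a type and less RNA per cell cannot be told apart. Sums of cell type markers also differed between the groups. The 14 macrophage markers summed to 1078 and 1259 FPKM in dKO SNI, 118 and 186 in dKO sham, 573 and 613 in WT SNI and 101 and 85.7 in WT sham. All 14 were called higher in SNI in both genotypes (limma, adjusted p under 0.05). The share of all tested genes called higher was 13.6% in WT and 23.8% in dKO. The 10 neutrophil and myeloid precursor markers summed to 7362 and 7209.6 FPKM in dKO SNI, 727 and 1208 in dKO sham, 1337 and 2601 in WT SNI and 744 and 992 in WT sham. The 14 sensory neuron markers summed to 4234 and 2930.3 FPKM in dKO SNI, 6608 and 7532 in dKO sham, 7252 and 5551 in WT SNI and 7365 and 8185 in WT sham. None of the defining markers Cd68, Adgre1, Mpo and Elane was at 0 in any library. Erythroid, fibroblast, endothelial and lymphocyte markers were highest in 1 or both of the dKO SNI libraries as well. The part of these cells in the values of the ribosomal protein genes was not tested.

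Of the 84 genes, 81 reached 1 FPKM in at least 2 libraries and were tested. The other 3 are paralogs with narrow tissue ranges. Rpl10l, a copy of Rpl10 expressed in testis, was listed at 0 in all 8 libraries. Rpl39l, a copy of Rpl39 known from germ cells, was listed at 0 in 7 libraries and at 0.185 FPKM in dKO SNI 2. Rpl3l, the form of Rpl3 found in striated muscle, was highest at 1.03 FPKM in WT sham 2, the library with muscle transcripts, and reached at most 0.269 FPKM elsewhere.

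Levels spanned a wide range although most of these proteins are present once per ribosome. By mean FPKM over the 8 libraries, the highest were Rpl41 (1824 FPKM), Rpl35 (1300.4 FPKM), Rps26 (828 FPKM), Rpl26 (818 FPKM) and Rps29 (579 FPKM). The order of Rps26 and Rpl26 was not tested and changed between groups. In dKO SNI Rpl26 was higher, with 1239 and 1746 FPKM, against 1233 and 1390.3 FPKM for Rps26. In every library of the other groups Rps26 was higher. Rpl41 encodes the smallest ribosomal protein, and its coding sequence of 75 bases (without the stop codon, from chromosome 10 in GENCODE on GRCm38), within a transcript of 582 bases, is shown as that of the gene with the highest level.
Rpl41: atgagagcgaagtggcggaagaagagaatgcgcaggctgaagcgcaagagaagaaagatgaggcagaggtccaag
The lowest tested genes were Rpl32l (1.40 FPKM), Rps27l (14.0 FPKM), Rpl7l1 (16.2 FPKM), Rps15a (24.1 FPKM) and Rpl36 (29.9 FPKM). Rpl32l is a processed pseudogene in GENCODE and protein-coding in RefSeq, Rps27l and Rpl7l1 are paralogs of Rps27 and Rpl7, and Rps15a and Rpl36 are ordinary subunit proteins.

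**Figure D2:**
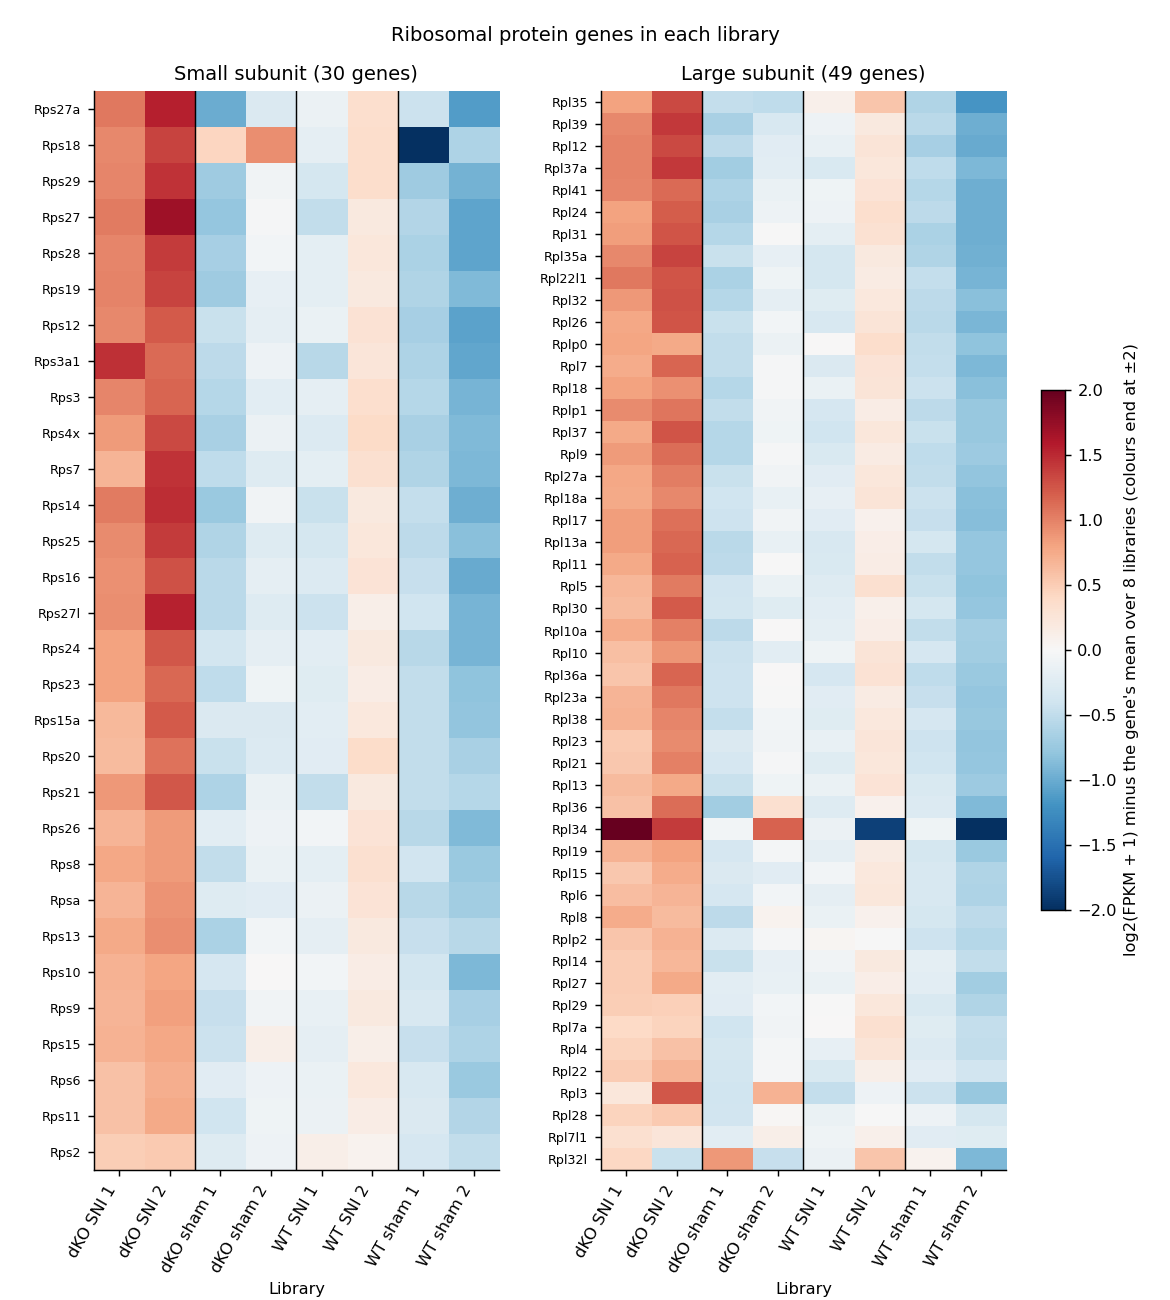
Values of 79 of the 81 tested genes in each library, as log2(FPKM + 1) minus the gene's own mean over the 8 libraries, for 30 small subunit genes (left) and 49 large subunit genes (right), ordered from the largest to the smallest mean change after axotomy. Nearly all rows are highest in the 2 dKO SNI columns, with Rpl3 and Rpl32l as exceptions. Rpl34 and Rps18 follow that pattern but vary widely between libraries of a group.

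The comparison of dKO SNI with dKO sham asks what axotomy does when Cre acts on the floxed myosin genes of sensory neurons. It gave 76 of 81 ribosomal protein genes higher and 0 lower, where 23.8% of all 12884 tested genes were called higher and 24.6% lower (limma on log2(FPKM + 1), Benjamini-Hochberg adjusted p under 0.05). Their median change was 1.18 on that log2 scale, and that of all genes was -0.00. For 79 of the 81 both SNI libraries exceeded both sham libraries, as they did for 37.7% of all genes. The 32 small subunit genes had a median change of 1.34, with 31 called higher, and the 49 large subunit genes a median of 1.11, with 45 called higher.

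The largest change after axotomy in dKO was that of Rps27a, which encodes ubiquitin fused to a small subunit protein. Rps27a measured 231 and 328 FPKM in dKO SNI, against 55.0 and 90.2 in dKO sham, a change of 1.95 ± 0.30 (adjusted p = 9.23e-04), where ± gives the standard error of a change in log2(FPKM + 1) throughout. Rps27, a small subunit protein with a zinc finger, measured 795 and 1248 FPKM in dKO SNI, against 226 and 380.5 in dKO sham (1.76 ± 0.33, adjusted p = 0.00255). Neither gene's groups overlapped. Rpl39, a short protein at the peptide exit tunnel, measured 410.1 and 563 FPKM in dKO SNI, against 134 and 168 in dKO sham (1.67 ± 0.22, adjusted p = 4.39e-04). Rps14, at the mRNA exit of the small subunit, changed by 1.66 and the large subunit protein gene Rpl37a by 1.65, with adjusted p of 0.00190 and 8.93e-04. At the low end of those called, Rpl29 measured 150.2 and 149 FPKM in dKO SNI, against 90.8 and 102 in dKO sham (0.63 ± 0.16, adjusted p = 0.00963), a call lost without dKO sham 1 (adjusted p = 0.0607).

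Of the 81 genes, 5 were not called in that comparison. Rps18, a protein of the small subunit head, measured 239 and 315 FPKM in dKO SNI, against 165 and 234 in dKO sham, a log2 change of 0.48 ± 0.65 (adjusted p = 0.562). Rpl3, which reaches towards the peptidyl transferase centre, measured 135 and 273 FPKM in dKO SNI, against 86.9 and 186 in dKO sham, so its groups overlapped (0.59 ± 0.38, adjusted p = 0.228). The fitted change was 1.18 ± 0.78 for Rpl34 (adjusted p = 0.237) and -0.22 ± 0.47 for Rpl32l (adjusted p = 0.726). Rpl7l1, a paralog with a role in early assembly of the large subunit, measured 20.2 and 19.1 FPKM in dKO SNI, against 13.7 and 17.5 in dKO sham, with a fitted change of 0.32 ± 0.14 (adjusted p = 0.0885).

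The comparison of WT SNI with WT sham asks the same of mice without Cre. There 22 of the 81 genes were called higher and 0 lower, against 13.6% of all genes higher and 9.38% lower (limma, adjusted p under 0.05). The median change was 0.62, against 0.07 for all genes, and in 74 of 81 genes both SNI libraries exceeded both sham libraries, as in 39.8% of all genes. The count rests on single libraries. Leaving out WT sham 2, which held muscle transcripts, left 1 call. The count was 0 without WT SNI 2, 10 without WT sham 1 and 33 without WT SNI 1, while the median stayed between 0.40 and 0.85.

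Rpl35, at the rim of the exit tunnel, had the largest called change in WT. Rpl35 measured 1200.2 and 1636 FPKM in WT SNI, against 736 and 493 in WT sham (1.22 ± 0.27, adjusted p = 0.0130). Rps12 measured 269 and 362 FPKM in WT SNI, against 187 and 141 in WT sham (0.94 ± 0.22, adjusted p = 0.0151). Both genes had SNI libraries above all sham libraries. Rpl12, part of the base of the stalk, changed by 0.89 ± 0.22 (adjusted p = 0.0186). The largest fitted change was that of Rps18, 2.01 ± 0.65, which was not called (adjusted p = 0.0504). Its values were 108 and 157 FPKM in WT SNI, against 12.1 and 79.1 in WT sham, and the fitted change was 0.71 without WT sham 1 and 3.32 without WT sham 2. The smallest changes were those of Rpl28 (0.16 ± 0.19), Rpl22 (0.21 ± 0.18), Rpl7l1 (0.24 ± 0.14), Rpl3 (0.31 ± 0.38) and Rpl34 (0.33 ± 0.78), with adjusted p from 0.245 to 0.786. Rpl28 measured 308 and 339 FPKM in WT SNI, against 315 and 265 in WT sham, which overlapped.

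The injury comparisons of the genotypes share no library, so the order of the genes in them can be set side by side. The changes in dKO and in WT correlated across the 81 genes (Pearson r 0.26, Spearman rho 0.53), as a description, since genes of 1 library share its depth and total. Without Rpl3, Rpl32l, Rpl34 and Rps18, which were left out after their values were seen, both were 0.60 over 77 genes. Of the 20 genes with the largest change in each genotype 11 were shared, among them Rpl12, Rpl35, Rpl39, Rps27a and Rps29, and of the 20 with the smallest change 12 were shared, among them Rpl22, Rpl28, Rpl4, Rpl7l1 and Rps2. The fitted change was larger in dKO than in WT for 79 of 81 genes (73 of 81 with quantile normalization), and the exceptions were Rps18 and Rpl32l. The difference between the changes, dKO minus WT, had a median of 0.54 against -0.08 for all genes. However, 0 of 81 passed the test in either direction (limma, adjusted p under 0.05). Of all genes, 0.0466% were called higher and 0.00776% lower. An unadjusted p under 0.05 was found for 18 of 81, and the share of all genes at that threshold was not counted. Rps27l had the largest difference, 1.13 ± 0.37 (adjusted p = 0.273), and Rps18 the most negative, -1.53 ± 0.91 (adjusted p = 0.441). A greater response in dKO was therefore not shown for any single gene, and genotype and Y-linked transcripts cannot be told apart in it.

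**Figure D3:**
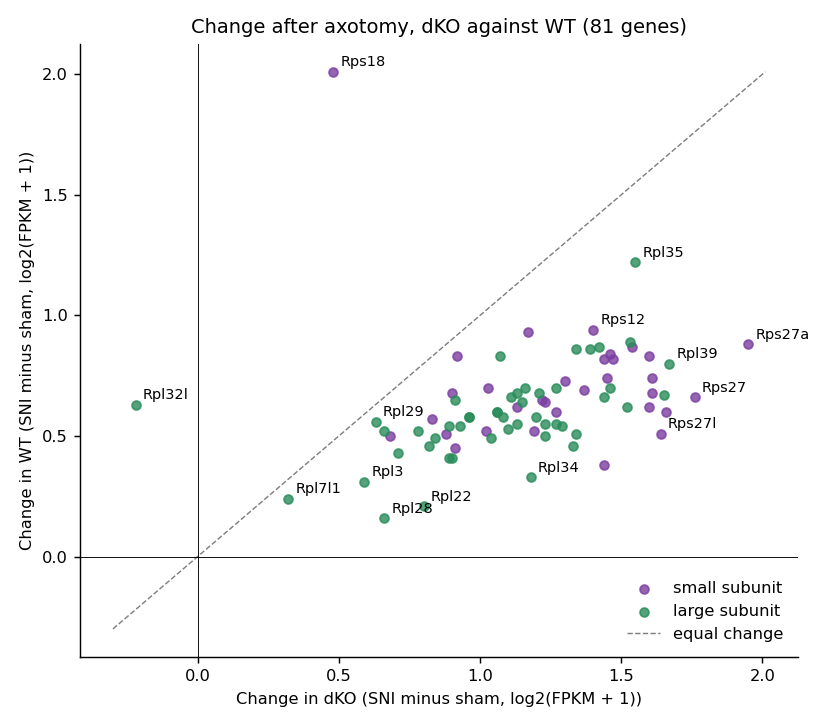
Change after axotomy in dKO (x axis) and in WT (y axis), each as SNI minus sham in log2(FPKM + 1), for the 81 tested genes; purple marks small and green large subunit genes. All genes but Rps18 and Rpl32l lie below the dashed line of equal change. The order of the genes is partly shared between the genotypes (Spearman rho 0.53).

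Averaged over both genotypes, which balances the Y-linked transcripts, axotomy gave 78 of 81 genes higher and 0 lower, against 29.5% of all genes higher and 25.5% lower (limma, adjusted p under 0.05). The median change was 0.90, against 0.04 for all genes, and the 3 genes that did not pass were Rpl3, Rpl34 and Rpl32l. Only 24 of 81 had all 4 SNI libraries above all 4 sham libraries, where 17.4% of all genes did. The median level of the 81 genes was 189 FPKM in WT SNI 1, below the 201 FPKM of dKO sham 2. The count stayed between 74 and 78 whichever library was left out.

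With 78 of the 81 genes called higher in the averaged injury comparison, against 29.5% of all genes, full counts do not set a role apart. By position in the ribosome, the proteins of the stalk, which recruits translation factors to the large subunit, were called in 4 of 4 in that comparison. Rplp0, its scaffold, measured 546 and 536 FPKM in dKO SNI, against 226 and 291 in dKO sham. It measured 319.6 and 405 FPKM in WT SNI, against 224 and 181 in WT sham (averaged change 0.95 ± 0.14, adjusted p = 4.78e-04). Rplp1 changed by 0.92, Rplp2 by 0.65 and Rpl12 by 1.21. Both partners of the 5S RNA particle, Rpl5 and Rpl11, which also bind the p53 regulator Mdm2, were called, with changes of 0.88 and 0.89.

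At the rim of the exit tunnel 7 of 7 genes were called, with a median of 0.98. Rpl35 measured 1957 and 2789.8 FPKM in dKO SNI, against 801 and 791 in dKO sham, and changed by 1.38 ± 0.19 in the averaged comparison (adjusted p = 3.45e-04), second to Rps27a at 1.42 ± 0.21 (adjusted p = 5.67e-04). Rpl39 changed by 1.23 and Rpl19, at the low end, by 0.74. Around the peptidyl transferase centre, where the peptide bond forms, 3 of 4 were called, with a lower median of 0.61: Rpl4 changed by 0.57, Rpl8 by 0.66 and Rpl10 by 0.83, and the fitted value of Rpl3 was 0.45 (adjusted p = 0.186).

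In the small subunit, 4 of 4 genes around the decoding centre and the head were called (Rps15, Rps18, Rps23, Rps27a; median 1.09) and 2 of 2 at the mRNA entry (Rps2 and Rps3; median 0.87). The call of Rps18 (1.25, adjusted p = 0.0419) was lost after rescaling (adjusted p = 0.0641), with quantile normalization (0.0740), with robust moderation (0.150), without the filter (0.225) and without any 1 of the 6 libraries other than WT sham 1 and WT sham 2, and its change was 0.59 without WT sham 1 and 1.90 without WT sham 2. Rps2 was the steadiest of all 81 genes between libraries of a group. Rps2 measured 440.1 and 451 FPKM in dKO SNI, 262 and 293 in dKO sham, 339 and 328 in WT SNI and 247 and 223 in WT sham. Its averaged change of 0.59 ± 0.11 was the smallest of the small subunit (adjusted p = 0.00166). Of 9 genes mutated in human Diamond-Blackfan anemia, an inherited failure of red cell production, 9 were called, with a median change of 1.02, close to that of all small subunit genes (1.04). These role lists hold 2 to 9 genes each, and no role was tested against another.

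The 4 genes on chromosome X, Rpl10, Rpl36a, Rpl39 and Rps4x, were read separately because the libraries differ in Y-linked transcripts. Rps4x, whose human counterpart has a Y-linked partner, measured 475 and 656 FPKM in dKO SNI, 167 and 241 in dKO sham, 215 and 342 in WT SNI and 167 and 141 in WT sham. All 4 were called in the averaged injury comparison, with a median change of 0.99, within the range of the autosomal genes.

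The paralogs Rpl22l1, Rps27l and Rpl7l1 were tested beside their partners. Rpl22l1, which can replace Rpl22 in the large subunit, measured 86.3 and 99.6 FPKM in dKO SNI, 25.9 and 38.5 in dKO sham, 31.8 and 46.2 in WT SNI and 29.0 and 21.0 in WT sham. Rpl22 measured 54.3 and 61.2 FPKM in dKO SNI, 29.0 and 37.0 in dKO sham, 30.3 and 41.2 in WT SNI and 32.0 and 28.8 in WT sham. Rpl22l1 thus lay above Rpl22 in both dKO SNI libraries and below it in both WT sham libraries. The change in the averaged injury comparison was 1.07 ± 0.17 for Rpl22l1 (adjusted p = 7.40e-04) and 0.50 ± 0.13 for Rpl22 (adjusted p = 0.00815), and the difference between the 2 genes was not tested. Rps27l, a paralog induced by p53 in human cells, changed by 1.07 ± 0.18, close to the 1.21 ± 0.24 of Rps27, at levels of 5.67 to 35.8 FPKM against 185 to 1248 FPKM. Rpl7l1 changed by 0.28 ± 0.10 (adjusted p = 0.0385) and Rpl7 by 0.94 ± 0.19 (adjusted p = 0.00239). The call of Rpl7l1 was lost after rescaling (0.14, adjusted p = 0.263), without the filter (adjusted p = 0.0792) and without any 1 of the 6 libraries other than WT SNI 1 and dKO sham 2 (adjusted p from 0.0622 to 0.123). Coding sequences of these pairs were identical at 70.2% of aligned bases for Rpl22l1 and Rpl22, 76.2% for Rps27l and Rps27, and 62.6% for Rpl7l1 and Rpl7, and their longest identical runs were 26, 11 and 10 bases.

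After axotomy, the comparison of genotypes (dKO SNI with WT SNI) gave 66 of 81 genes higher and 0 lower, against 10.7% of all genes higher and 13.4% lower (limma, adjusted p under 0.05). The median change was 0.91, against -0.03 for all genes, and in 80 of 81 genes both dKO SNI libraries exceeded both WT SNI libraries, as in 30.8% of all genes. The count was 0 without WT SNI 1 and 0 without dKO SNI 2, and 59 to 63 without each of the other 6 libraries in turn, while the median stayed between 0.70 and 1.12. Rps27 measured 795 and 1248 FPKM in dKO SNI, against 273 and 441 in WT SNI (1.52 ± 0.33, adjusted p = 0.0157). Rps3a1, a small subunit protein, measured 427 and 341 FPKM in dKO SNI, against 105 and 183 in WT SNI (1.45 ± 0.27, adjusted p = 0.0115). Rps27l changed by 1.39 ± 0.26 (adjusted p = 0.0113) and Rps14 by 1.38 ± 0.30 (adjusted p = 0.0149). The smallest changes were those of Rpl32l (-0.24 ± 0.47), Rpl7a (0.26 ± 0.17), Rpl7l1 (0.27 ± 0.14), Rpl29 (0.37 ± 0.16) and Rps2 (0.42 ± 0.15), with adjusted p from 0.0749 to 0.735. The largest fitted change was that of Rpl34 (2.74 ± 0.78, adjusted p = 0.0342; 0.146 with robust moderation), whose values are given with its processed copy.

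Without axotomy, the comparison of dKO sham with WT sham gave 0 of 81 genes higher and 0 lower (limma, adjusted p under 0.05). Of all genes, 0.0931% were called higher and 0.0621% lower. An unadjusted p under 0.05 was found for 5 of 81 (Rpl34, Rps10, Rps12, Rps18 and Rps26), and the share of all genes at that threshold was not counted. The fitted change was above 0 in 81 of 81 (in 79 after rescaling and 80 after centring or quantile normalization), with a median of 0.35 against 0.04 for all genes, and in 39 of 81 both dKO sham libraries lay above both WT sham libraries, as in 27.8% of all genes. Rps18 measured 165 and 234 FPKM in dKO sham, against 12.1 and 79.1 in WT sham (2.61 ± 0.65, adjusted p = 0.178). Rps26, which contacts mRNA at the exit channel, measured 667 and 719 FPKM in dKO sham, against 525 and 416 in WT sham (0.57 ± 0.21, adjusted p = 0.384). Rpl14 (0.04 ± 0.17) and Rpl28 (0.05 ± 0.19) had the smallest fitted values, and their groups overlapped. Averaged over both surgeries, dKO against WT gave 67 of 81 higher and 0 lower, against 11.8% of all genes higher and 10.4% lower, with a median of 0.64 against 0.01. That count fell to 0 to 5 without dKO SNI 2, dKO sham 2, WT SNI 1 or WT sham 2. Only Rpl34 and Rps18 had all 4 dKO libraries above all 4 WT libraries, as 1.62% of all genes did.

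Libraries of the same group differed in these genes as a block. In dKO SNI, library 2 exceeded library 1 in 74 of 81 genes (median difference 0.29 in log2), in dKO sham in 79 (0.36), in WT SNI in 78 (0.42) and in WT sham in 1 (-0.35). Of all 12884 genes, 42.1 to 56.9% were higher in library 2, and the median differences lay between -0.05 and 0.05. The residual SD of a gene within groups had a median of 0.27 in the ribosomal protein genes and 0.15 in all tested genes. The genes therefore do not give 81 independent readings of an effect: a shift that moves a whole library moves nearly all of them. In WT sham the exception was Rps18, higher in library 2 by 2.61.

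**Figure D4:**
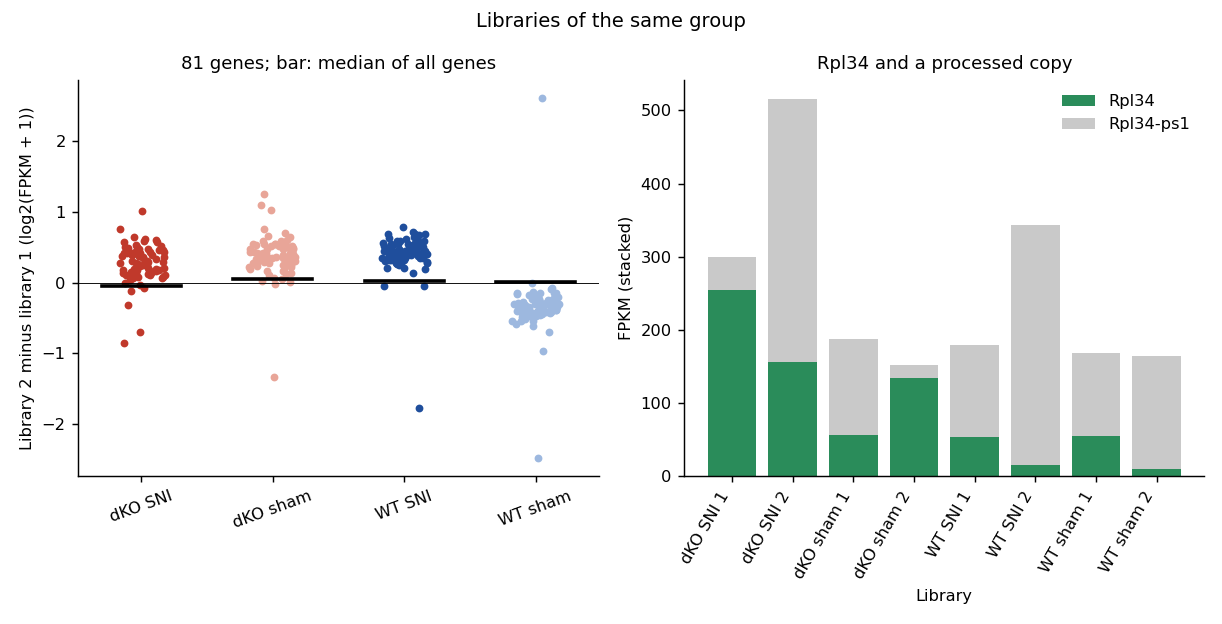
Left, library 2 minus library 1 of each group in log2(FPKM + 1) for the 81 genes (points), with the median of all tested genes as a black bar; the points lie mostly above 0 in dKO SNI, dKO sham and WT SNI and mostly below 0 in WT sham. Right, FPKM of Rpl34 (green) and its processed copy Rpl34-ps1 (grey), stacked for each library; Rpl34 is 9.05 to 254 FPKM and Rpl34-ps1 is 18.5 to 360.2 FPKM.

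Processed copies were counted for each gene as annotated pseudogene transcripts with at least 90% identity over at least 80% of its coding sequence. Of the 83 genes with a coding sequence, 6 had no such copy, the median was 8 and the highest was 76, for Rpl21. Rpl7a had 74, Rpl29 had 58 and Rps2 had 47. The 11 genes with at least 20 copies had a median level of 128 FPKM and a median injury change of 0.77, and the 18 with at most 4 copies, paralogs left out, had 273 FPKM and 0.83. Across 80 genes the number of copies was hardly related to the injury change (Pearson r -0.17, Spearman rho 0.04) or to the spread between libraries (r -0.10, rho 0.05), as a description.

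Copies of 13 of these genes were listed as rows of the same table, 18 rows in all, and 4 of these rows averaged at least 1 FPKM. The clearest case was Rpl34, a large subunit protein on chromosome 3. Rpl34 measured 254 and 156 FPKM in dKO SNI, 56.1 and 134 in dKO sham, 54.0 and 15.2 in WT SNI and 55.0 and 9.05 in WT sham, with the widest spread of all 81 genes (residual SD 1.19). Its copy Rpl34-ps1 measured 46.0 and 360.2 FPKM in dKO SNI, 132 and 18.5 in dKO sham, 125 and 328 in WT SNI and 114 and 155 in WT sham. In each group the library with the lower Rpl34 value had the higher Rpl34-ps1 value. Summed with the copies Rpl34-ps1 and Gm4705, a reading chosen after the values were seen, Rpl34 came to 307 and 534 FPKM in dKO SNI, 189 and 158 in dKO sham, 182 and 347 in WT SNI and 171 and 165 in WT sham. In the sum, SNI libraries lay above sham libraries in both genotypes, and dKO SNI overlapped WT SNI, so the genotype calls of Rpl34 alone are uncertain. For Rps18 and Rpl3, which were also uneven, no copy was listed as a row, and for Rpl32l, a pseudogene in GENCODE, none was searched. Rpl37rt, a copy of Rpl37, measured 70.1 and 103 FPKM in dKO SNI, 21.4 and 42.7 in dKO sham, 26.1 and 47.8 in WT SNI and 22.1 and 21.4 in WT sham, in step with Rpl37 itself.

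The changes were also read against the gene start and the transcript length. Genes with a run of at least 8 C or T bases that includes a listed start had a median injury change of 0.78 (18 genes). Those with a shorter run there or none had 0.92 (43 genes), and these include genes such as Rpl18 with a run beside the start. Of the windows shown, Rpl35 and Rpl28 both carry a run and had averaged changes of 1.38 and 0.41. That of Rpl28 was 0.09 with quantile normalization (adjusted p = 0.502) and 0.25 after rescaling (adjusted p = 0.0955), and its call was also lost without the filter (adjusted p = 0.0790) and without WT SNI 2, WT sham 2, dKO SNI 2 or dKO sham 1 (adjusted p from 0.0593 to 0.107). Coding length and the averaged injury change correlated with r -0.42 and rho -0.37 over 80 genes. Among other genes, shorter transcripts had higher values: the median averaged injury change was 0.29 for transcripts under 500 bases, 0.17 from 500 to 1000, 0.09 from 1000 to 2000, -0.01 from 2000 to 4000 and -0.10 at 4000 and above. Ribosomal protein genes of the same first 4 classes had medians of 0.91, 0.92, 0.87 and 0.72.

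Genes that serve the ribosome without being part of it by name were read from lists, with the share of all genes called in the averaged injury comparison (29.5% higher, 25.5% lower) as background. Ribosomal proteins that the naming rule misses were called higher in 5 of 5, with a median of 0.79. Rack1, a scaffold on the small subunit head, measured 228 and 247 FPKM in dKO SNI, 84.9 and 108 in dKO sham, 127 and 161 in WT SNI and 85.6 and 72.5 in WT sham (1.08 ± 0.13, adjusted p = 1.44e-04). Fau, which encodes a ribosomal protein fused to a ubiquitin-like one, changed by 0.75, Rpl36al by 0.79 and Rps27rt by 0.93. Of the 77 mitochondrial ribosomal protein genes 20 were called higher and 6 lower, with a median of 0.12. Mrpl33 changed most clearly, at 97.2 and 118 FPKM in dKO SNI, 39.8 and 46.2 in dKO sham, 41.9 and 61.2 in WT SNI and 30.7 and 35.2 in WT sham (0.96 ± 0.14, adjusted p = 4.15e-04).

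Among 8 genes grouped as elongation factors, 4 were called higher and 1 lower. Eef1b2, which reloads the factor that brings tRNA with GTP, changed by 1.13 ± 0.10 (adjusted p = 3.76e-05). Tpt1 and Eef1a1, whose mRNAs also start with a pyrimidine run, changed by 0.77 and 0.61. Eef1a2, the form of that factor used in neurons and muscle, measured 118 and 71.1 FPKM in dKO SNI, 271 and 338 in dKO sham, 279 and 177 in WT SNI and 336 and 393 in WT sham, and fell by 1.21 (adjusted p = 8.46e-04). Eef2, which moves the ribosome along the mRNA, had a fitted value of -0.09 ± 0.12 (adjusted p = 0.525). Of 37 initiation factor genes, 12 were called higher and 2 lower (median 0.18). Pabpc1, Eif2s2 and Eif3e changed by 0.69, 0.77 and 0.81, and Eif4g3 fell by 0.69.

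Genes that make and assemble ribosomes were called in both directions. Of 20 genes for rRNA transcription by RNA polymerase I, 5 were called higher and 3 lower (median 0.09). Rrn3, which brings the polymerase to the rRNA promoter, was lowest in the dKO SNI libraries (13.9 and 13.2 FPKM) and highest in the WT sham libraries (26.6 and 28.5 FPKM), and fell by 0.59 (adjusted p = 4.26e-04). The polymerase subunit gene Znrd1 changed by 0.82 and Taf1d by 0.55, while Nolc1 fell by 0.52. Of 52 genes for nucleolar processing of rRNA, 18 were called higher and 6 lower (median 0.13). Npm3 and Npm1, nucleolar histone chaperones, changed by 0.94 and 0.69, Nop58, a core protein of methylation guide particles, by 0.58, and Nol6 fell by 0.66. Assembly factors were called higher in 8 and lower in 4 of 38 for the large subunit (median 0.15) and higher in 4 and lower in 1 of 19 for the small subunit (median 0.13), with Nip7 at 0.71 and Riok3 at 0.86. Of 9 chaperones of ribosomal proteins or nascent chains, 2 were called higher and 2 lower, among them Naca at 0.78 and Hsph1, which fell by 1.01. These lists are described by counts and medians only.

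**Figure D5:**
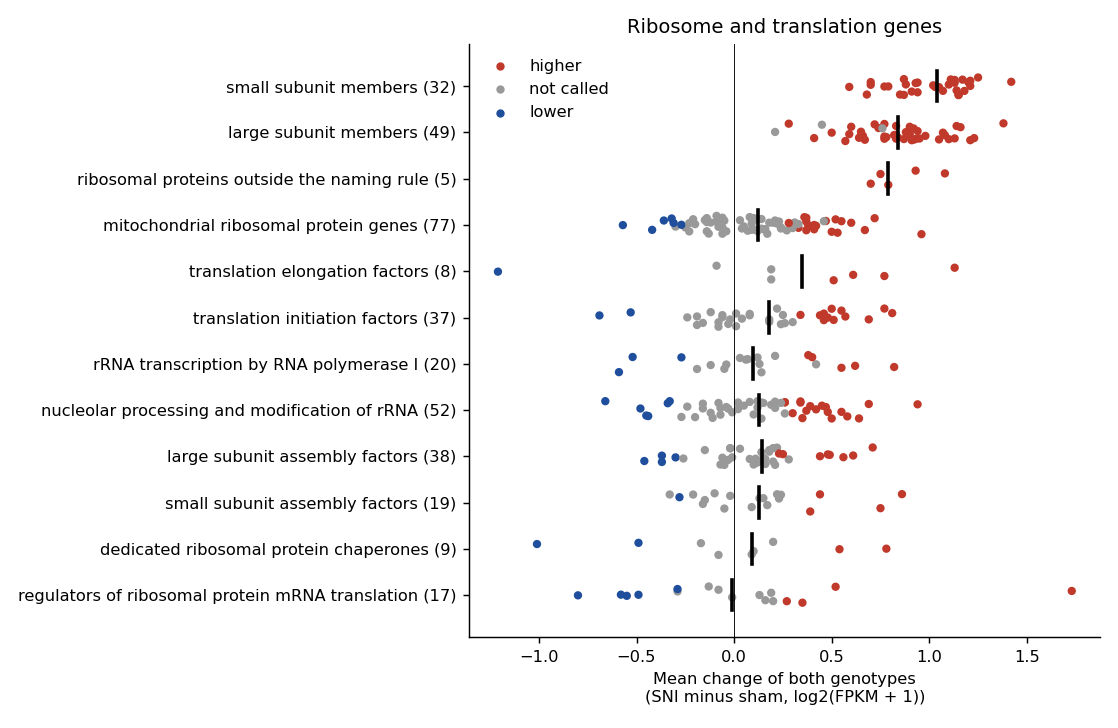
Change after axotomy averaged over both genotypes (SNI minus sham, log2(FPKM + 1)) for each tested gene of 12 lists, with the number of tested genes in parentheses. Red genes were called higher, blue lower and grey neither, and black lines are medians, which are 1.04 and 0.84 for the small and large subunit genes and -0.01 to 0.35 for all lists other than the 5 ribosomal proteins outside the naming rule (0.79).

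Of 17 regulators of ribosomal protein mRNA translation, 4 were called higher and 5 lower (median -0.01). Eif4ebp1, a translational repressor that mTOR switches off, measured 18.2 and 23.8 FPKM in dKO SNI, 4.00 and 6.89 in dKO sham, 14.0 and 15.7 in WT SNI and 3.54 and 4.42 in WT sham (1.73 ± 0.15, adjusted p = 3.49e-05). Larp1, which binds the pyrimidine start of these mRNAs, measured 11.9 and 9.83 FPKM in dKO SNI, 21.5 and 21.1 in dKO sham, 16.8 and 13.2 in WT SNI and 22.0 and 27.2 in WT sham, and fell by 0.80 (adjusted p = 4.14e-04). Mtor fell by 0.58 and Rptor, its partner, by 0.55. In 14 other genes with processed copies, 8 were called higher and 1 lower (median 0.47), with Ftl1, a ferritin chain, at 0.87 and Hsp90ab1 at -0.82.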

How the data were processed

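Per the labels' protocols, total RNA from the ganglia was turned into paired-end libraries with a TruSeq kit. HISAT2 2.0.4, StringTie 1.3.0, edgeR without a version, GRCm38.p4 and mm10 are listed in the submitters' processing notes, which give their role nowhere. The authors deposited 1 table of FPKM per gene symbol and library; the handling of reads with several matching places is not given in the sources used here. Low FPKM values were read as ratios to those of WT sham 1. At most 28% of these ratios (in WT sham 2) lay close to a common value. Read depth was not derived from them, and no count test was run.

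Here, a gene was tested when 2 or more of the 8 libraries reached 1 FPKM (12884 genes), as log2(FPKM + 1), with limma 3.58.1 in R 4.3.3. The pseudocount of 1 understates changes of low genes. All 8 libraries entered 1 model with a mean for each group (4 residual degrees of freedom) and a trend of variance with level; p-values are two-sided and Benjamini-Hochberg adjusted over the whole table, at a threshold of 0.05. In a test on simulated data of WT SNI against WT sham (12884 genes, 200 changed), 83% of changes of 1 and 100% of changes of 2 in log2 were recovered, with 5 false calls. Whether this recovery and number of false calls hold for the ribosomal protein genes was not tested. Their median residual SD within groups was 0.27, against 0.15 in all tested genes. They also shifted as a block between libraries of a group. Sequences are from RefSeq tables (GRCm38.p6), and annotation and copies from GENCODE on GRCm38, searched with BLAST 2.17.0. The deposited table holds no coordinates.

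The members and lists were chosen with earlier results of these data known. Named genes were the 5 highest and 5 lowest levels, the 5 largest and smallest changes per comparison, members not called in dKO SNI against dKO sham, paralogs with their partners, X-linked and uneven members, and the 4 members of each pathway list with the smallest p in the averaged injury comparison; role examples and copies were chosen after their values were seen. No 2 libraries were identical. Alternatives were the pseudocount, the filter, centring, rescaling, quantile normalization, robust moderation, fits of only 4 libraries, the replicate number as a block and leaving out each library. Values of a few single genes are not reported here.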

Additional observations from a re-analysis of the deposited data

How the results depend on the processing

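No ribosomal protein gene was called lower in any of the 7 comparisons under any alternative run. Without a filter on low values, 0 genes were called higher in WT SNI against WT sham, 0 in dKO SNI against WT SNI and 0 in dKO against WT averaged over surgeries, where 62 were called in dKO SNI against dKO sham and 71 in the averaged injury comparison; the cause was not tested. In WT SNI against WT sham 14 were called after centring each library on its median and 14 after rescaling each library to a total of 1000000. Quantile normalization gave a median change of 0.86 in dKO SNI against dKO sham (70 called) and 0.66 in dKO SNI against WT SNI (47 called). It also turned Rpl28 in WT SNI against WT sham to -0.07 and in dKO sham against WT sham to -0.08. Rescaling turned Rpl14 to -0.02 and Rpl28 to -0.01 in dKO sham against WT sham, and centring turned Rpl14 to -0.00. Fits of only the 4 libraries compared gave 25, 77 and 50 genes called higher in WT SNI against WT sham, dKO SNI against dKO sham and dKO SNI against WT SNI. Rescaling moved the median of all genes in dKO SNI against dKO sham to -0.15, against -0.00 as reported, and that of the ribosomal protein genes to 1.01, against 1.18 as reported. For the 79 values of named genes, 633 of 682 alternatives other than leaving out a library kept direction and side of the threshold, 39 lost the call (27 of them without the filter), 5 gained it and 5 turned sign.

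With 1 library left out in turn, the lone library being assumed to vary like the others, the number called higher ran from 0 to 33 in WT SNI against WT sham (median change 0.40 to 0.85), from 64 to 78 in dKO SNI against dKO sham (0.99 to 1.38), from 0 to 63 in dKO SNI against WT SNI (0.70 to 1.12), from 0 to 1 in dKO sham against WT sham (0.15 to 0.53), from 74 to 78 in the averaged injury comparison (0.79 to 1.01) and from 0 to 69 in the averaged genotype comparison (0.53 to 0.75). It was 0 throughout in the difference between the injury effects (0.33 to 0.76). Single genes that turned sign were Rpl22 (-0.00 to 0.43) and Rpl34 (-0.91 to 1.57) in WT SNI against WT sham, Rpl32l in dKO SNI against dKO sham (-0.88 to 0.45) and against WT SNI (-0.67 to 0.19), and Rpl14 (-0.10 to 0.19) and Rpl28 (-0.16 to 0.27) in dKO sham against WT sham. Of 632 values of named genes with a library left out, 542 kept direction and side of the threshold and 71 lost the call.

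Deviations of same-numbered libraries from their group means had correlations of -0.19 to 0.25 over genes, with both signs present. Of the 81 ribosomal protein genes, the higher-numbered library had the larger value for 74 in dKO SNI, 79 in dKO sham and 78 in WT SNI. In WT sham it did so for 1. Whether libraries of the same number shared a processing step was not tested. With the replicate block the number called higher was 24 in WT SNI against WT sham, 76 in dKO SNI against dKO sham, 64 in dKO SNI against WT SNI, 78 in the averaged injury and 66 in the averaged genotype comparison.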
